A study of Homo sapiens with 11 samples.

Results

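Serum response factor (SRF), the 3 ternary complex factors that bind DNA beside it (ELK1, ELK3 and ELK4) and 6 genes of the actin cytoskeleton that are known SRF targets (ACTB, ACTG1, CFL1, TPM4, VCL and FLNA) were followed in Jurkat clone E6-1, a human T cell leukaemia line. The 10 genes were taken by symbol from both of the authors' comparison tables, which list 44416 genes, and each symbol had 1 row. Cells received the solvent DMSO, 100 µM of the organochlorine insecticide dieldrin or 100 µM of the phorbol ester PMA, an activator of protein kinase C, for 30 min, and the PMA dose is given as the labels state it. Each of the 3 groups has 3 poly(A)-enriched RNA libraries, and 1 further DMSO and 1 further dieldrin library, depleted of ribosomal RNA, go with the site lists described last. All cells are of this 1 cultured line, and the labels leave unsaid whether the 3 libraries of a group stem from different cultures, so p-values may measure technical spread only.

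The comparison tables hold a mean, a fold change and its error for each gene, and no value per library. Library depth is therefore unknown, and whether single libraries of the groups overlapped cannot be told. In bulk RNA, fewer cells of a kind and less RNA per cell cannot be told apart. A level in CPM is the share of the summed mean normalised counts that a gene holds, scaled in the usual way, where 1 CPM is a mean count of 83.7. All 12 of 12 T cell markers (CD3D, LCK and others) reached 1 CPM, with levels from 1.02 to 834 CPM. Of these markers 0 was called in either comparison of the authors' deposited table, against 2.30% of all genes tested with dieldrin and 0.619% with PMA. An unadjusted p under 0.05 was found in 1 with dieldrin and 1 with PMA, against 8.36% and 3.73% of all genes. Of 12 smooth muscle and fibroblast markers, whose cells use SRF heavily, 4 reached 1 CPM (THY1, TAGLN, COL1A1 and ACTA2), while MYH11, CNN1 and DES stayed at or below 0.105 CPM. Myeloid markers reached 1 CPM in 0 of 8 cases and B cell markers in 2 of 6, which were CD79A and BLK.

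SRF is a MADS-box transcription factor that binds a short DNA element, the CArG box, as a dimer. It takes its cue from partners of 2 kinds: the ternary complex factors, which MAP kinases phosphorylate and which drive immediate-early genes such as FOS and EGR1, and the myocardin-related factors, which sense the pool of monomeric actin and drive actin and actin-binding genes. In T cells the actin cytoskeleton shapes the contact with antigen-presenting cells and migration, and SRF's own gene is among SRF's targets.

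Promoter sequences are shown because the CArG box is the element that SRF binds. Windows from 250 bases before to 50 bases after each RefSeq start (build GRCh38.p14) were available for 9 of the 10 genes. The CArG box was searched in its full form, which reads the same on both strands, and an exact match lay in the windows of 4 of the 9: SRF, ACTG1, TPM4 and FLNA. Among all 35116 RefSeq promoter windows 454 held an exact match, which is 1.29%, and by gene the share was 438 of 27305, or 1.60%. The 250 bases before the start follow, 5′ to 3′ on the gene's own strand, with the CArG boxes in capitals: chr6:43171019-43171268 (plus strand) for SRF, chr17:81512800-81513049 (minus strand) for ACTG1, chr19:16067288-16067537 (plus strand) for TPM4 and chrX:154374635-154374884 (minus strand) for FLNA.
SRF: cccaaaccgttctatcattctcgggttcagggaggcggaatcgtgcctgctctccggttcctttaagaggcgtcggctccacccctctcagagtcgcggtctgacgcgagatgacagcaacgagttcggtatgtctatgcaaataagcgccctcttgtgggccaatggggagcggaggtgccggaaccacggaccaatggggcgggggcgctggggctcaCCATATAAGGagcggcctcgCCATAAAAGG
ACTG1: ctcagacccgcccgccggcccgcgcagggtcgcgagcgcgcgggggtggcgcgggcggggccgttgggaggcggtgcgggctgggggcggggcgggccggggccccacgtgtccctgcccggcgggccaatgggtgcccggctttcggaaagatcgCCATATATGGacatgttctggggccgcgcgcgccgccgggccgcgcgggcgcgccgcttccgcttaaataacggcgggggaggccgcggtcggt
TPM4: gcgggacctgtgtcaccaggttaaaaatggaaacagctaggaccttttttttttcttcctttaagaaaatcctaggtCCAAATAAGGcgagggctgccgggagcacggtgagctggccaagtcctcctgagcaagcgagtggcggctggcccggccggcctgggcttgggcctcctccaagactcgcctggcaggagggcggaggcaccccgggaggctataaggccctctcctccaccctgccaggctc
FLNA: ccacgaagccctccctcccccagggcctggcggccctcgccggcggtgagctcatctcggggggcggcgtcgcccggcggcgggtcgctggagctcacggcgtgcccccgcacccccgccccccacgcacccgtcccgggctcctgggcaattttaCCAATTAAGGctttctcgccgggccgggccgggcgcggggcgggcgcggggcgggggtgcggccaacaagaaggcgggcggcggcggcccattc
SRF carries 2 boxes, CCATATAAGG from 30 to 21 bases before the start and CCATAAAAGG in the last 10 bases, and 11 of the 35116 windows held 2 or more. ACTG1 has CCATATATGG and FLNA has CCAATTAAGG, both from 94 to 85 bases before the start. In TPM4 the box CCAAATAAGG lies from 173 to 164 bases before the first of 3 RefSeq starts, and the other 2 starts have a box with 1 mismatch. The core letters of ETS factors such as the ELK proteins, GGAA or TTCC on either strand, were counted where they lay wholly within the 20 bases on either side of a box. This held for the exact box in ACTG1 and for none of the other 3 genes, and in TPM4 a TTCC lies only partly inside that distance. Among all windows with an exact box 162 of 454, or 35.7%, had a core wholly within it, and 95.5% of all windows held the core letters somewhere. ELK1, ELK3, ELK4, VCL and CFL1 had no box in these windows, exact or with 1 mismatch, and ACTB is named only. With 1 mismatch allowed the same 4 of 9 genes held a box, against 6099 of 27305 RefSeq genes, or 22.3%. A match is a description of the letters and not a measured binding site.

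**Figure D1:**
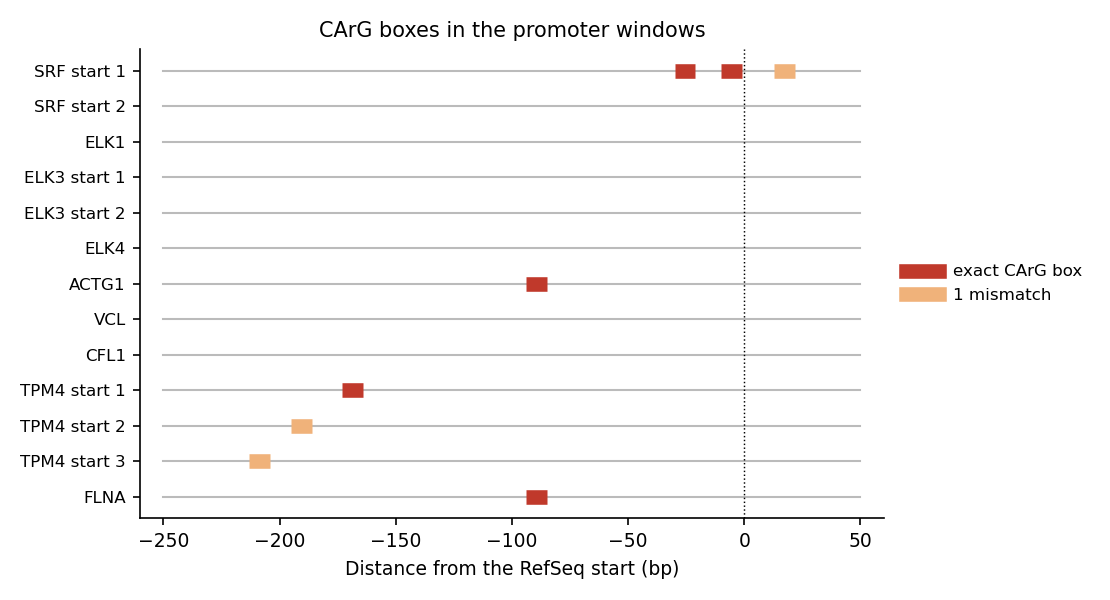
Position of CArG boxes (bars; exact or with 1 mismatch) in each RefSeq promoter window of 9 genes, by distance from the start in bp. SRF has 2 exact boxes in the last 30 bases before its first start, and the boxes of ACTG1 and FLNA lie at the same distance.

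The levels of the 10 genes spanned 3 orders of magnitude on a scale per kb of exon. Mean counts were divided by the summed length of the gene's exons, overlaps counted once (GENCODE v29). ACTB, beta-actin, stood highest at 184413 counts per kb, 2.01 times the 91728 of ACTG1, gamma-actin. CFL1, cofilin, which severs actin filaments, followed at 22426 counts per kb. FLNA, filamin A, which crosslinks filaments and ties them to the membrane, had 5614 counts per kb, and TPM4, a tropomyosin that coats filaments, had 4666. By total level the authors' deposited table puts ACTB 5th and ACTG1 14th among all genes, and the 10 genes together hold 1.40% of all mean counts. SRF had 2216 counts per kb, ELK1 1144, ELK4 453, VCL (vinculin, of focal adhesions) 126 and ELK3 90.4. Among the ternary complex factors the order per kb was thus ELK1, ELK4 and ELK3. By total level ELK4 stood above ELK1, at 65.6 against 46.4 CPM, with 12.1 against 3.40 kb of exon. The myocardin-related factors stood at 27.2 CPM (MKL1) and 7.25 CPM (MKL2), and MYOCD, of heart and smooth muscle, at 0.0142 CPM. No error per group is given for levels, so neighbours in this order were not tested.

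**Figure D2:**
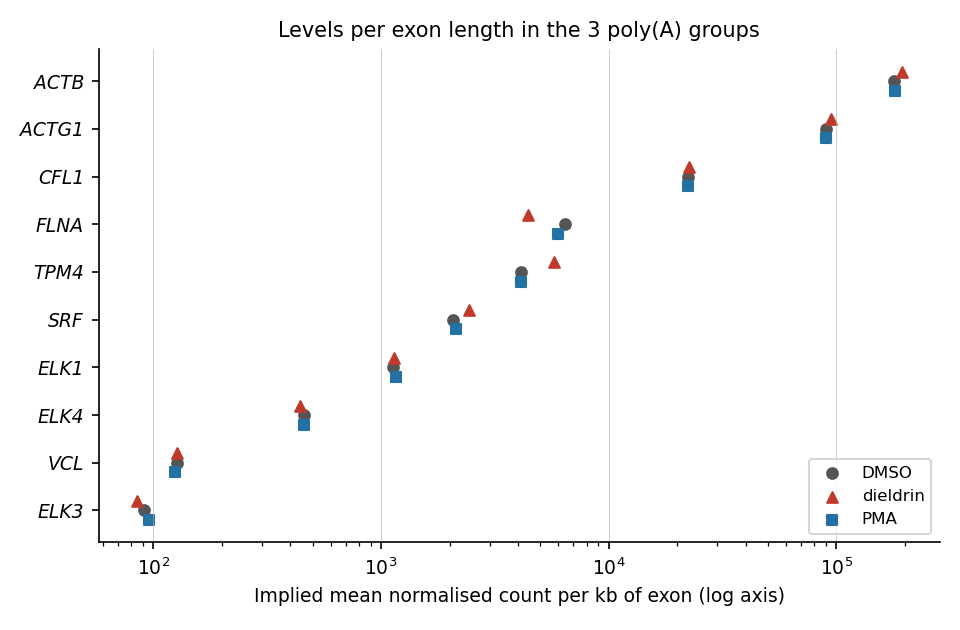
Mean normalised count per kb of exon (log axis) implied for the DMSO, dieldrin and PMA groups, by gene. The 3 groups of a gene lie close together for every gene except TPM4 and FLNA, where the dieldrin mean stands apart, and SRF, where it is slightly higher.

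With dieldrin, TPM4 rose and FLNA fell, and the other 8 genes did not pass the threshold of an adjusted p under 0.05 in the authors' deposited table. That makes 2 of 10, with 443 of 19280 tested genes called in all (2.30%; 1.28% higher and 1.02% lower). The median unshrunken log2 change was 0.011 over the 10 genes and 0.0019 over all genes tested, so the middle of the group lay where the middle of all genes lay. Folds below come from the authors' unshrunken changes, and log2 changes with an error are their shrunken changes, which are pulled towards 0.

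TPM4 (ENSG00000167460, hg19 chr19:16177831-16213813, plus strand) had implied group means of 35700 with DMSO, 49397 with dieldrin and 35729 with PMA. The dieldrin mean was 1.38-fold that of DMSO, and DMSO and PMA were at the same level. In the authors' deposited table its log2 change with dieldrin was 0.37 ± 0.0967 (SE; 95% interval 0.18 to 0.55), adjusted p = 0.0107 by the Wald test. It came 291st among all genes by p.

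FLNA (ENSG00000196924, hg19 chrX:153576892-153603006, minus strand) moved the other way, from a mean of 68115 with DMSO to 46889 with dieldrin, with 63274 in the PMA group. The dieldrin mean was thus 0.688 times that of DMSO, and the PMA mean lay between them, nearer to DMSO. The log2 change with dieldrin in the authors' deposited table was -0.39 ± 0.102 (SE; 95% interval -0.59 to -0.19), adjusted p = 0.00795. FLNA came 272nd by p. Both genes carry an exact CArG box in the sequences above, as do ACTG1 and SRF, which were not called. At a threshold of 0.01 FLNA stayed called and TPM4 did not.

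SRF itself (ENSG00000112658, hg19 chr6:43139037-43149243, plus strand) had implied means of 8717 with DMSO, 10240 with dieldrin and 8975 with PMA. The dieldrin mean was 1.17-fold that of DMSO. Its log2 change in the authors' deposited table was 0.20 ± 0.0841 (SE; 95% interval 0.03 to 0.36), with an unadjusted p of 0.0195 and an adjusted p of 0.364 by the Wald test. SRF was therefore not called. At an unadjusted p under 0.05 it joins TPM4 and FLNA, which makes 3 of 10 against 8.36% of all tested genes.

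The ternary complex factors were not called with dieldrin. ELK1 (chrX:47494920-47510003, hg19, minus strand) had means of 3825, 3867 and 3966 with DMSO, dieldrin and PMA. For ELK4 (chr1:205577071-205601090, hg19, minus strand) they were 5564, 5360 and 5567. ELK3 (chr12:96588160-96663613, hg19, plus strand), which can act as a repressor, had 424, 393 and 443. Their log2 changes with dieldrin in the authors' deposited table were 0.01 ± 0.0727 for ELK1, -0.05 ± 0.0672 for ELK4 and -0.08 ± 0.107 for ELK3 (SE), each with an adjusted p of 1.00. The 95% intervals ran from -0.13 to 0.16 for ELK1, from -0.18 to 0.08 for ELK4 and from -0.29 to 0.13 for ELK3. Each interval holds 0, and the interval of ELK3, the lowest gene, is the widest of the 10.

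The actin genes were not called either. ACTB (chr7:5566782-5603415, hg19, minus strand) had means of 630770 with DMSO, 680597 with dieldrin and 635478 with PMA, and a dieldrin change in the authors' deposited table of 0.10 ± 0.0752 (SE; 95% interval -0.05 to 0.24), adjusted p = 0.961. ACTG1 (chr17:79476997-79490873, hg19, minus strand) had 268354, 285063 and 270209, with a dieldrin change in that deposited table of 0.08 ± 0.0595 (SE; 95% interval -0.04 to 0.20), adjusted p = 0.936. Both actins were 1.08-fold and 1.06-fold their DMSO means, within the error. The coding sequences of ACTB and ACTG1 are 91.2% identical over 1128 bases, with the longest identical run at 59 bases, so the split of reads between them depends on counting that is not given in the sources used here. ACTG2, a smooth muscle actin whose coding sequence is 84.3% identical to ACTB's, is listed at 138 CPM, and its level is uncertain for the same reason.

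The remaining actin binders had like means in the 3 groups. CFL1 (chr11:65590493-65629497, hg19, minus strand) had means of 131337, 131957 and 131156 with DMSO, dieldrin and PMA. VCL (chr10:75757872-75879918, hg19, plus strand) had 1265, 1262 and 1245. The dieldrin changes in the authors' deposited table were 0.0061 ± 0.0719 (SE) for CFL1 and -0.0025 for VCL (SE 0.1002), with 95% intervals from -0.13 to 0.15 and from -0.20 to 0.19. Neither gene was called, and the interval of CFL1 is the narrower of the pair. CFL1 shares 4901 bp with MUS81 on the opposite strand, whose mean is 8554, and the use of strand in counting is not given in the sources used here.

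Pseudogenes of the actins and of cofilin were low. The highest of each, ACTBP2 (mean 43.8), ACTG1P1 (7.30) and CFL1P1 (96.4), held at most 0.0733% of the parent's mean. The second of each were ACTBP11 (11.1), ACTG1P3 (5.98) and CFL1P5 (23.8). CFL1P5, which lies inside CCDC125 on the same strand, rose with dieldrin in the authors' deposited table, 2.81-fold by the unshrunken change and 0.33 ± 0.0936 (SE) by the shrunken log2 change, adjusted p = 0.0248. Its reads cannot be separated here from those of CFL1 or CCDC125.

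**Figure D3:**
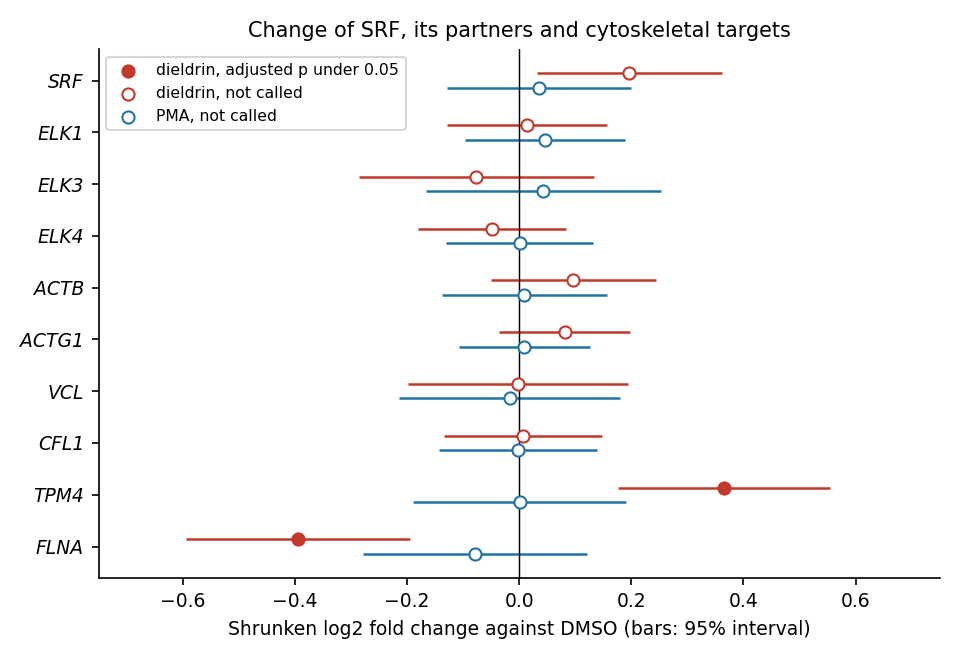
Shrunken log2 fold change against DMSO for dieldrin (red) and PMA (blue), with 95% intervals from the authors' standard errors; filled points passed an adjusted p under 0.05. TPM4 and FLNA with dieldrin are the filled points, on opposite sides of 0, and every PMA interval holds 0.

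With PMA, 0 of the 10 genes were called in the authors' deposited table by the Wald test, and 0 had an unadjusted p under 0.05. Among all 17612 genes tested 109 were called (0.619%; 0.528% higher and 0.0908% lower), and 3.73% had an unadjusted p under 0.05. The largest PMA change of the 10 in that deposited table was that of FLNA, -0.08 ± 0.102 (SE; 95% interval -0.28 to 0.12), adjusted p = 1.00. TPM4 stood at 0.0009 ± 0.0967, and SRF at 0.04 ± 0.0841 (SE). The median unshrunken log2 change was 0.0056 over the 10 genes and -0.0044 over all genes tested. The dieldrin and PMA comparisons share their DMSO libraries.

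Dieldrin was set directly against PMA by the difference of the authors' 2 shrunken changes, with a two-sided normal test adjusted over all genes tested in both. Of the 10 genes 0 were called, with 87 of 17612 genes called in all (0.494%; 0.261% higher and 0.233% lower with dieldrin), and TPM4 and FLNA had an unadjusted p under 0.05, as did 2.71% of all genes. The difference was 0.36 ± 0.137 for TPM4 (SE; 95% interval 0.10 to 0.63), adjusted p = 0.716. For FLNA it was -0.32 ± 0.144 (SE; 95% interval -0.60 to -0.03), adjusted p = 1.00. SRF differed by 0.16 ± 0.119 (SE; 95% interval -0.07 to 0.39), adjusted p = 1.00. The error leaves out the covariance through the shared DMSO libraries, which enlarges it. With that covariance subtracted TPM4 was called, adjusted p = 0.0154, and FLNA was not, adjusted p = 0.102. Both comparisons do use the same DMSO libraries, so the error without this subtraction is too wide and the count of 0 is a cautious one. The covariance subtracted was worked out from the 2 standard errors, as no values per library were at hand.

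Genes that SRF is known to drive were then counted in 2 lists, 40 further cytoskeletal targets and 20 immediate-early targets, with CTGF and CYR61 in both. Of the cytoskeletal targets 34 were tested with dieldrin, and 0 were called in the authors' deposited table by the Wald test, against 2.30% of all genes tested. At an unadjusted p under 0.05 TPM2 was higher, and MYH9, ITGA5 and TLN1 were lower, against 8.36% of all genes. With such a share over all genes, a count of 0 in a list of this size says little. With PMA 0 of 32 were called, and 0 had an unadjusted p under 0.05, against 0.619% and 3.73% of all genes tested. The median unshrunken log2 change of this list was -0.0071 with dieldrin and -0.0091 with PMA, near those of all genes tested. Its highest members had dieldrin changes near 0 on the unshrunken log2 scale of the authors' deposited table: 0.05 for TMSB4X, which binds monomeric actin, -0.0089 for PFN1, profilin, and 0.01 for WDR1, a partner of cofilin.

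In the immediate-early list most tested genes were called higher with both agents. With dieldrin 13 of 15 tested genes rose and 0 fell in the authors' deposited table, against 2.30% of all genes called, with a median unshrunken log2 change of 1.92. With PMA 10 of 14 rose and 0 fell, against 0.619% of all genes called, with a median of 1.82. The 13 were FOS, EGR1, EGR2, IER2, IER3, JUNB, MCL1, NR4A1, ZFP36, ARC, NPAS4, DUSP5 and KLF6, and ARC, NPAS4 and KLF6 were the ones not called with PMA. EGR1, a zinc finger factor, had implied means of 1062 with DMSO, 41708 with dieldrin and 52196 with PMA. FOS, a subunit of AP-1, had 54.9, 15120 and 1786, and its dieldrin and PMA means both lay far above DMSO. When dieldrin was set against PMA, FOS, EGR2, NR4A1, NPAS4 and KLF6 were called higher with dieldrin. These were 5 of 14 tested genes, and 0 were called lower, against 0.494% of all genes called. At an unadjusted p under 0.05 by the same normal test, 6 were higher and 2 lower, against 2.71% of all genes. The error again left out the shared covariance, and this list was not recounted with it subtracted. FOSB, EGR3, EGR4 and CYR61 carry no p in the authors' deposited table. CYR61, a matrix protein also counted as a cytoskeletal target, had implied means of 56.9 with DMSO, 852 with dieldrin and 102 with PMA. With no p and no value per library, whether a single library sets such a mean cannot be told. These lists were drawn up with earlier results of these data known, so the counts are descriptions. Exact CArG boxes lay in the promoter windows of 6 of 36 cytoskeletal and 2 of 13 immediate-early genes with an entry, against 1.60% of all RefSeq genes. The 2 were EGR1 and EGR2. Boxes more than 250 bases before a start were not searched, so a gene without one here, such as FOS, may carry one farther away.

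**Figure D4:**
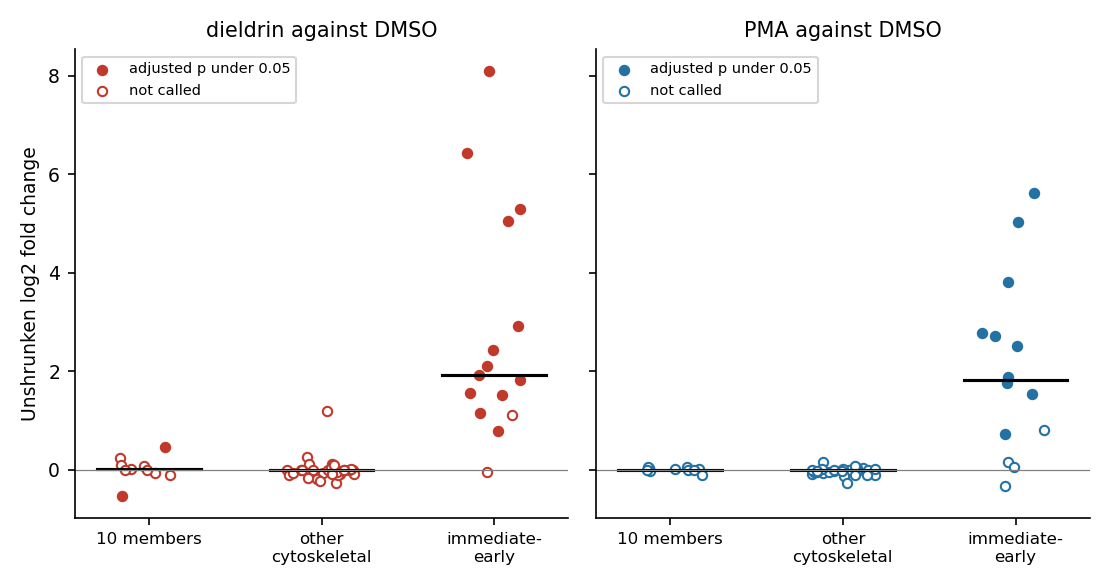
Unshrunken log2 fold change against DMSO of each tested gene among the 10 genes, the other cytoskeletal SRF targets and the immediate-early SRF targets, for dieldrin (left) and PMA (right); bars are medians and filled points passed an adjusted p under 0.05. The first 2 groups centre on 0 with both agents, while the immediate-early medians lie at 1.92 and 1.82.

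Regulators of the actin pool and filaments were counted next. Of 28 actin filament regulators, led by LCP1, CORO1A and TMSB10, 0 were called with either agent in the authors' deposited table. Over all genes tested 2.30% were called with dieldrin and 0.619% with PMA. ARPC1A was lower at an unadjusted p under 0.05 with dieldrin and none with PMA, against 8.36% and 3.73% of all genes. MKL1 and MKL2 were tested, and neither was called with either agent.

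Paralogs of TPM4, FLNA and the other cytoskeletal genes were not called with either agent, 0 of 12 tested with dieldrin and 0 of 11 with PMA in the authors' deposited table by the Wald test. The shares over all genes were 2.30% and 0.619%. At an unadjusted p under 0.05 ACTA1 and TPM2 were higher and CFL2 lower with dieldrin, and 0 with PMA, against 8.36% and 3.73% of all genes. TPM3, the highest tropomyosin at 499 CPM, had implied means of 41830 with DMSO and 41811 with dieldrin. The rise of TPM4 and the fall of FLNA were thus not matched by a call in TPM1, TPM2, TPM3 or FLNC. The coding sequences of TPM3 and TPM4 are 76.9% identical and those of FLNA and FLNC 75.8%, so these pairs are less alike than ACTB and ACTG1.

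The 5 genes of at least 1 CPM whose pair of unshrunken changes lay nearest to that of SRF (0.23 with dieldrin and 0.04 with PMA) were HECTD2, RNF19A, FNBP4, GOLGA2P7 and POLG2. Their distances in this plane of 2 log2 changes ran from 0.000868 to 0.00913, among 12853 genes. Likeness over 2 comparisons that share their controls is a weak description, and it is given as such.

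The authors' site lists, made from 1 DMSO and 1 dieldrin library depleted of ribosomal RNA, mark places of divergent transcription, where RNA starts in both directions as at many promoters and enhancers. They hold 113689 and 118474 sites, with no value per site, so no test was possible. In the DMSO list 5 of the 10 genes had a site within 1 kb of the gene start (SRF, ELK4, ACTG1, CFL1 and FLNA), and in the dieldrin list 3 had one (SRF, ELK4 and FLNA). Of the 12853 genes of at least 1 CPM 77.0% had one in the DMSO list and 76.9% in the dieldrin list. The gene start is the outermost one in the table, which can lie far from the start in use. Within 10 kb the counts were 8 and 7.

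At SRF the DMSO list has 3 sites within 1 kb before the start, of which the nearest is chr6:43138777-43138926 (hg19), ending 111 bases before it. The dieldrin list has 2, which reach chr6:43138503-43138767 and chr6:43138776-43139017. Sites thus lay just before the SRF start in both lists. At FLNA the DMSO site runs from 752 to 1337 bases after the start and the dieldrin site before it, so the lists share no base there. Of the 9087 genes of at least 1 CPM with a site of both lists in this window, 766 (8.43%) likewise shared none. ELK4 has a site over its start in both lists.

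Inside the gene bodies the DMSO and dieldrin lists hold 24 and 24 sites for FLNA, 0.919 per kb in both, where the median over genes was 0.151 per kb. They cover 30.4% and 28.7% of the FLNA body. TPM4 has 3 and 2, of which 0 share a base with the other list, and SRF has 1 and 1, which do. Over all sites 43.7% of the DMSO list and 41.8% of the dieldrin list shared a base with the other list. VCL holds 28 and 41, ELK3 24 and 29, ELK4 19 and 13, CFL1 11 and 14, ACTB 10 and 7, ACTG1 8 and 5 and ELK1 4 and 5. With 1 library per condition, a difference between these counts has no replicate check.

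**Figure D5:**
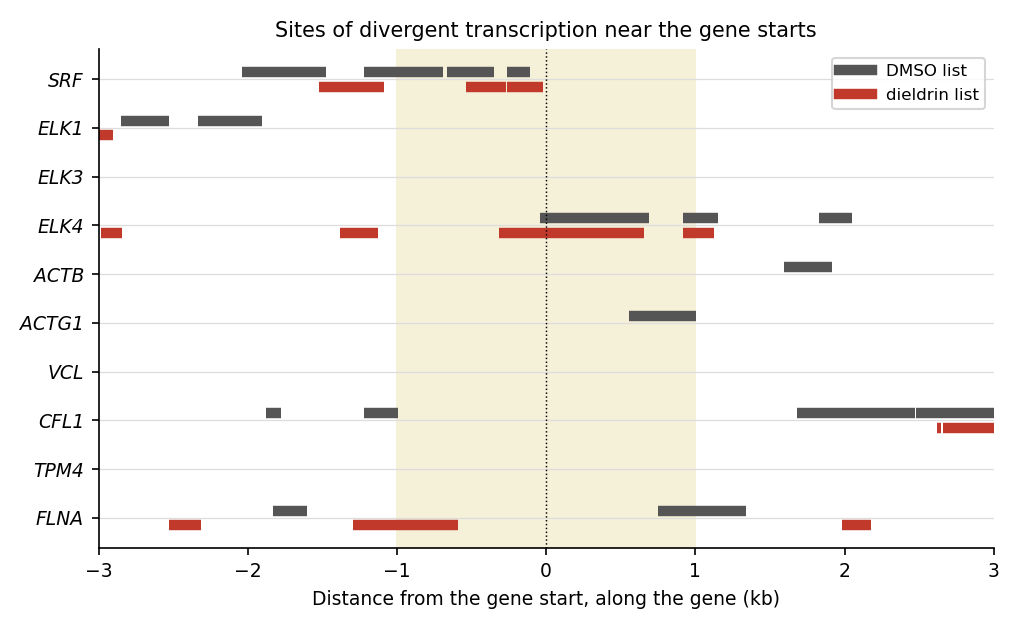
Sites of divergent transcription (bars) in the DMSO and dieldrin lists within 3 kb of each gene start, by distance along the gene in kb; shading marks the 1 kb window. SRF and ELK4 have sites beside the start in both lists, and ELK3, VCL and TPM4 have none in this range.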

How the data were processed

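RNA from Jurkat cells was sequenced as poly(A)-enriched libraries (3 per group) and 2 ribosomal-RNA-depleted libraries. STAR, edgeR and the build hg19 come from the submitters' processing notes; not given in the sources used here are the annotation release, the site caller, the aligner settings and how counting treated strand. Per the file headers, each comparison sheet gives the mean of normalised counts (signal), log2 fold changes with and without shrinkage (log2), a Wald statistic (score) with its standard error, and a p-value with its adjusted p; such columns come from a negative binomial Wald test with a fold-change prior, which the headers do not name. The authors deposited the sites as positions only, without a score. No values per library were used, so depth is unknown, no count model was fitted, and 1088 genes have no p-value. All value columns of the tables were mapped, and 0 columns of per-sample values were left out.

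Group means were worked out from the mean and both unshrunken changes, taking the mean as that over the 9 poly(A) libraries; intervals are the change ± the normal quantile times its SE. Agents were compared by a two-sided normal test of the difference of shrunken changes with Benjamini-Hochberg adjustment. Sites overlapped a window when they shared at least 1 bp. Promoters and their build came from RefSeq GRCh38.p14 and exon lengths and coding sequences (longest open reading frame) from GENCODE v29; their coordinates were not mixed with hg19. The 10 members and the other lists (164 entries, 153 different symbols, all found) were chosen with earlier results of these data known. Named were the 10 genes, called and up to 3 highest members of each list, the 5 genes nearest to SRF and the 2 highest pseudogenes per gene; list members named at an unadjusted p, and EGR3, EGR4, FOSB, CYR61 and ACTG2, were chosen after their values were seen. A few items covered by this rule are left out. The calls by adjusted p, the comparison of the agents and the Benjamini-Hochberg adjustment were run on simulated data with normal errors of the deposited size. Such data meet the assumption of the test, so this checks the calculation and not the authors' calls. The real statistics were narrower, with robust spreads of 0.922 for dieldrin, 0.689 for PMA and 0.616 for their difference. Python 3.11.15, numpy 2.4.6, pandas 2.3.3, scipy 1.17.1, Biopython 1.88 and matplotlib 3.10.9 were used. Alternatives were other thresholds, a filter at 1 CPM, other adjustments and other site windows.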

Additional observations from a re-analysis of the deposited data

How the results depend on the processing

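With dieldrin against DMSO, 2 of the 10 genes were called under every alternative adjustment and filter, except at an adjusted p under 0.01, where the count was 1 (FLNA; 286 genes in all, against 443), and SRF made it 3 at an unadjusted p under 0.05. With PMA the count was 0 under every alternative. With dieldrin against PMA it was 0, but 1 (TPM4) with the shared DMSO covariance subtracted, 2 (TPM4 and FLNA, adjusted p = 0.00144 and 0.0199) with the statistic divided by its robust spread of 0.616, and 2 with the unadjusted threshold of 0.05; over all genes the counts were then 267, 462 and 477 against 87. The robust spread also moved the PMA count over all genes from 109 to 501. Cytoskeletal targets called with dieldrin went from 0 to 4 at an unadjusted p under 0.05, which 8.36% of all genes passed, and stayed at 0 otherwise. Immediate-early counts ranged from 12 to 13 with dieldrin and from 10 to 11 with PMA. The unadjusted threshold was added after seeing the data. Genes with a site near the start went from 5 in the DMSO list to 8 within 10 kb, 10 with the gene body and 3 by site centre, and from 3 in the dieldrin list to 7 and 10. The expression alternatives change thresholds, filters and adjustments, not the fold changes, so they cannot test a direction. No paired analysis was possible because the tables hold no values per library, and leaving out single replicates was not run for the same reason. Depth per library is unknown, so errors rest on the authors' standard errors alone.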
